A study of Mus musculus with 5 samples.

Results

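The genes described here encode the proteins that copy DNA in S phase, together with factors that switch copying on. They are 37 genes chosen by name, with earlier results of these data known, and all 37 are among the 13004 genes of the deposited table. They were measured by RNA sequencing of natural killer (NK) cells, lymphocytes of the innate immune system that can kill virus-infected and tumour cells. The NK cells were sorted alive from mouse spleen as CD3- NK1.1+ DX5+ cells. The 2 MycKO libraries (numbered 5 and 6) came from Mycdelta/delta/Ncr1Cre mice, which lose Myc where Cre is made from Ncr1, a gene active in NK cells and some related lymphocytes. The 3 control libraries (numbered 1, 2 and 3) came from Mycf/f mice, whose labels name no Cre, so presence of Cre and loss of Myc differ together between the groups. All mice were C57BL/6 and 8 weeks old. Nothing in the labels ties a library to its own animal. The p-values therefore reflect library-to-library spread alone, part of which may be technical.

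DNA is copied once in each cell cycle. In G1 the origin recognition complex, CDC6 and CDT1 load the ring-shaped MCM helicase onto DNA. In S phase CDC45 and the GINS complex switch the helicase on, and polymerases, the sliding clamp PCNA and its loader RFC extend the new strands. Many of these genes are targets of E2F transcription factors and are transcribed as a cell leaves rest, a step that MYC promotes in many cell types. Most NK cells of a resting spleen are not dividing.

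Levels are in RPKM, reads per kilobase of transcript scaled to the library's total. The reads in listed genes came to 5451728 and 13337084 in MycKO 5 and 6, against 14290690 to 17610826 in the controls, so counting error is largest in MycKO 5. Myc was at 12.5 and 8.704 RPKM in MycKO 5 and 6, against 12.98, 22.97 and 21.24 RPKM in controls 1, 2 and 3 (log2 fold change -0.77, limma adjusted p = 0.297). The groups did not overlap, but which exons are deleted is not stated in the labels, so this level does not measure the deletion. Of 12 NK cell markers 11 were listed, and each exceeded 1 RPKM in every library. They summed to 9538 and 11340 RPKM in MycKO 5 and 6, against 12110 to 13780 RPKM in the controls. Limma called 0 of the 11, against 1.34% of all genes tested, and limma-voom 3, against 2.07%. Before adjustment 6 had a limma p under 0.05, against 13.2% of all genes. In both MycKO libraries 6 of the 11 were below all controls, against 10.4% of all genes, and 1 was above, against 18.8%. For each of 6 other cell types, the markers summed to more in both MycKO libraries than in any control. The 12 myeloid markers summed to 1444 to 1804 RPKM in MycKO and 433 to 628 RPKM in control, and 10 of them rose at a limma adjusted p under 0.05, a call that 1.24% of all genes tested reached. The 9 listed of 14 erythroid markers summed to 251 to 434 RPKM in MycKO and 91.1 to 143 RPKM in control, and 4 rose, with Klf1 at 0 RPKM in controls 1 and 2. The 8 listed of 11 T cell markers summed to 121 to 178 RPKM in MycKO and 14.7 to 33.0 RPKM in control, and 3 rose; Cd5 was at 0 RPKM in MycKO 5 and controls 2 and 3. The 9 listed of 11 B and plasma cell markers summed to 409 to 766 RPKM in MycKO and 124 to 185 RPKM in control, and 1 rose, with Sdc1 at 0 RPKM in controls 2 and 3. The 7 listed of 9 neutrophil markers summed to 232 to 567 RPKM in MycKO and 24.6 to 78.3 RPKM in control, and 2 rose, with Mpo at 0 RPKM in all 3 controls. The 6 basophil and mast cell markers summed to 9.56 to 68.3 RPKM in MycKO and 3.57 to 5.58 RPKM in control. Mcpt8 was at 0 RPKM in all 3 controls. Of the 5 tested, 0 passed limma or limma-voom and 2 had an unadjusted limma p under 0.05, against 13.2% of all genes. Mcpt8 was among these 2. It entered the test, which asks for 1 RPKM in 2 or more libraries, through the MycKO libraries alone, so its direction is no evidence. The same holds for any other marker under 1 RPKM in all 3 controls, Klf1 among them. The part of the 6 other cell types in the values below was not tested.

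No DNA replication gene passed the test between MycKO and control NK cells. All 37 were tested, and 0 had a limma adjusted p under 0.05, against 1.34% of the 11190 genes tested. At an unadjusted p under 0.05 there were 2, E2f1 and Rfc3, against 13.2% of all genes tested. Limma-voom on the reads called 0 of the 37, against 2.07% of all genes, and the authors' deposited table called 0, against 3.4%. Fold changes are differences of mean log2(RPKM + 1) between MycKO and control, a scale that understates differences of genes at low level. On it 31 members lay above 0 and 6 below, against 57.1% of all genes above 0. Their median was 0.14, beside 0.05 over all genes. MycKO and control libraries did not overlap for 3 members that were higher in MycKO (E2f1, Rfc3 and Ccne2), against 18.8% of all genes, and for 1 that was lower (Rpa1), against 10.4%. Ccne2 passed the filter on low values only through the MycKO libraries, so its separation was fixed by the filter.

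**Figure D1:**
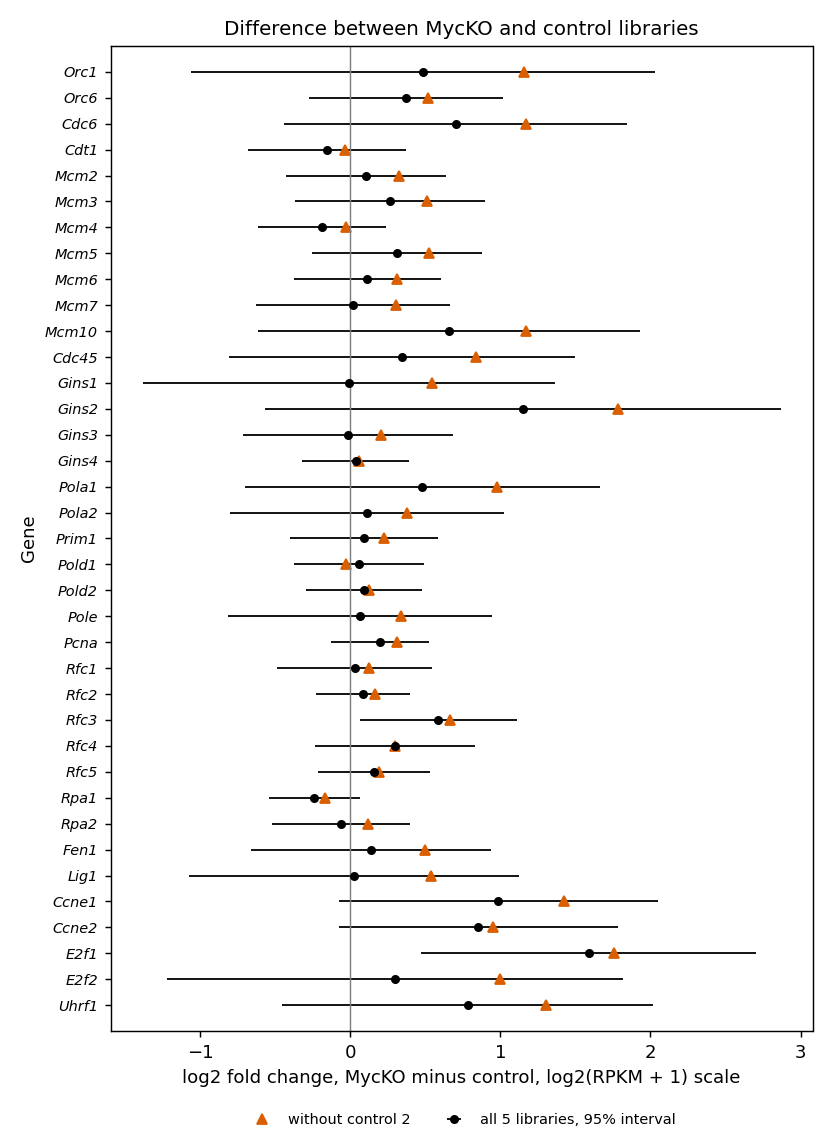
Difference between MycKO and control for each of the 37 genes (horizontal axis, difference of mean log2(RPKM + 1), positive where MycKO is higher). Black points with 95% intervals use all 5 libraries and orange triangles leave out control 2. The intervals of E2f1 and Rfc3 lie above 0 before adjustment over all genes, and 33 of 37 triangles lie above 0. For Orc1, Mcm10 and Ccne2 the direction of the triangle was fixed by the filter on low values.

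The spread among the controls was wide for these genes. Their median SD among the 3 controls was 0.39 on the log2(RPKM + 1) scale, beside 0.23 over all genes. Control 2 was the highest of the 3 controls for 34 of 37 members, against 37% of all genes. Its level exceeded the mean of the other 2 controls for 36 of 37, by a median of 0.64. Over all genes tested it did so for 5612 of 11190, and the median difference was 0.001. Over the 5 libraries MycKO 5 was highest for 16 members, against 23.9% of all genes, and control 2 for 19, against 21.0%, while control 1 was lowest for 18, against 21.6%, and control 3 for 13, against 18.3%. Both MycKO libraries lay above controls 1 and 3 for 24 of 37 members (64.9%), against 26.9% of all genes. Control 2 lay above both MycKO libraries for 19 (51.4%), against 31.3% of all genes. In a bulk sample, more cycling cells and more RNA per cycling cell cannot be told apart.

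**Figure D2:**
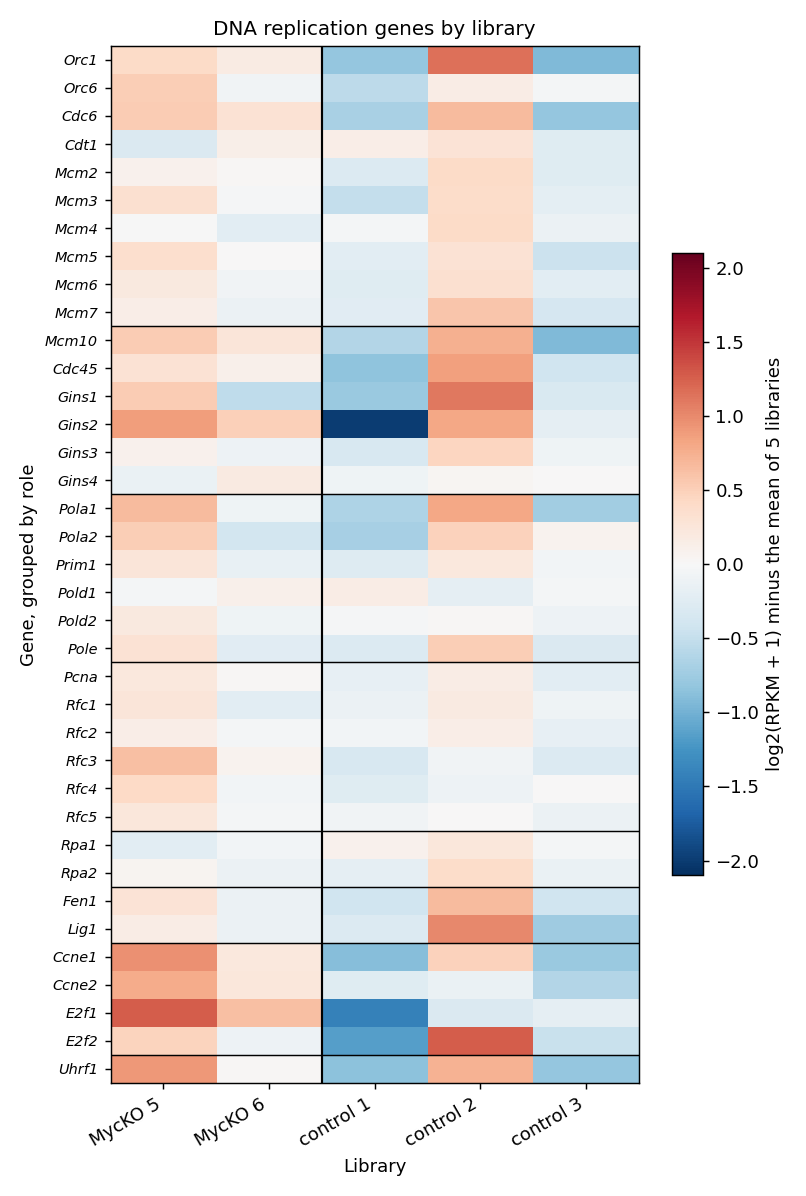
Level of each member in each library (columns), as log2(RPKM + 1) minus the member's own mean over the 5 libraries (colour scale). Genes are grouped by role. MycKO 5 and control 2 are above the mean for 32 of 37 genes each, MycKO 6 for 16, and controls 1 and 3 for 3 each.

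The 37 genes together took 0.216% and 0.179% of the reads in MycKO 5 and 6, against 0.159%, 0.243% and 0.158% in controls 1, 2 and 3. The means were 0.198 ± 0.0267% in MycKO (SD, n = 2) and 0.187 ± 0.0492% in control (SD, n = 3), a difference smaller than either SD. Genes of mitosis, which act after DNA has been copied, had the same high and low libraries. They took 0.0893% and 0.0415% of the reads in MycKO 5 and 6, against 0.0221%, 0.120% and 0.0233% in controls 1, 2 and 3, and control 2 was the highest control for 24 of 24.

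**Figure D3:**
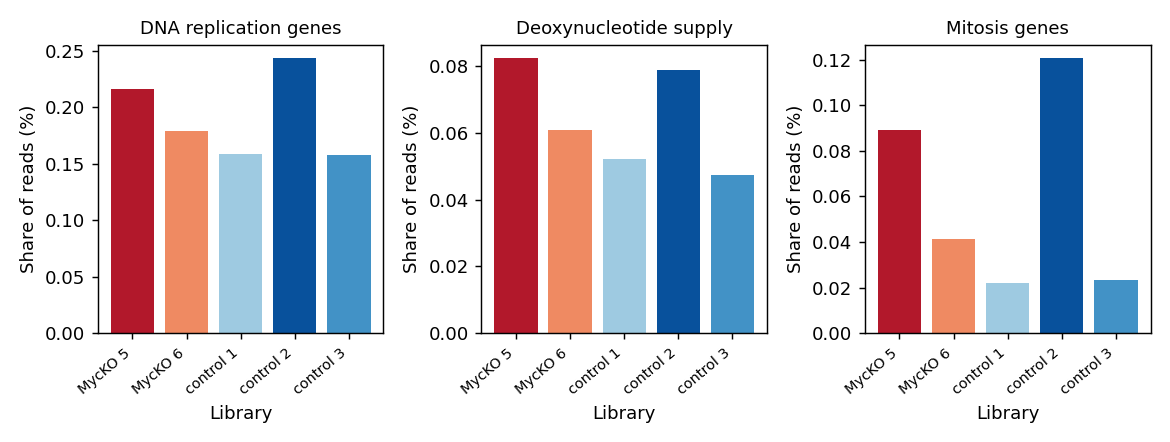
Share of reads (vertical axes, percent of the reads in listed genes) taken in each library by DNA replication genes (37), deoxynucleotide supply genes (9) and mitosis genes (24). MycKO 5 and control 2 are the tallest bars in each panel, controls 1 and 3 the shortest, and MycKO 6 lies between.

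The median log2 fold change of the members was 0.07 when control 1 was left out, 0.38 when control 2 was, and 0.11 when control 3 was, and 0 members passed in each case. MycKO 5 had the highest marker sums of the 5 libraries for myeloid, erythroid, neutrophil and basophil and mast cells. MycKO 6 had the highest for T cells and for B and plasma cells. Without MycKO 5 the median of the members was 0.06, and without MycKO 6 it was 0.34. Control 2 was the control whose absence moved it most. Without control 2 the median over all genes was 0.04, and 33 of 37 members lay above 0, against 55.3% of all genes. Then 15 members had an unadjusted p under 0.05, against 14.7% of all genes, and 0 passed after limma adjustment, against 1.97%. The smallest adjusted p was 0.0907, for Ccne1. Among the 15, Orc1 and Mcm10 were under 1 RPKM in controls 1 and 3, as was Ccne2 among the 33. With control 2 left out, these genes passed the filter through the MycKO libraries alone, so their direction is no evidence. Control 2 was the highest control for 34 of 37 members, and leaving out the highest control raises a difference by construction.

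Members differed in how far they varied. The range of log2(RPKM + 1) over the 5 libraries was at least 1 for 16 members, against 28.6% of all genes, and these included E2f1, E2f2, Orc1, Gins1, Gins2, Ccne1, Uhrf1, Lig1 and Cdc45. It was under 0.5 for 8 members, against 35.1% of all genes. Those 8 were Rfc1, Rfc2, Rfc5, Pcna, Pold1, Pold2, Gins4 and Rpa1. By mean level over the 5 libraries Pcna was the highest member, at 168.0 RPKM, followed by Rfc2 at 66.1 RPKM and Rpa1 at 62.3 RPKM, and Ccne2 the lowest, at 0.974 RPKM.

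Promoters were searched for words bound by E2F factors. The genes were chosen by name and many are E2F targets, so a high share of such words was likely beforehand. Whether the words have a part in the levels of these libraries was not tested. RefSeq windows on GRCm38.p6, from 250 bases before to 50 after a gene's start, were matched for 30 of the 37 members; Mcm4, Gins1, Gins2, Gins4, Pole, Rfc2 and Ccne2 had no match. One of the words TTTCCCGC, TTTGGCGC, TTTCGCGC or TTTGCCGC, on either strand and with overlaps kept, was found in 14 of the 30 genes (46.7%), against 4.6% of 10050 genes of the table with such windows. The word CACGTG, an E-box that MYC can bind, was in 5 of 30 (16.7%), against 11.5%, and CCAAT, a word bound by NF-Y, was in 20 of 30 (66.7%), against 43.0%. The median range over the 5 libraries was 0.95 for the 14 members with an E2F word and 0.68 for the 16 without. E2f1, with a range of 2.7, counts among those without. Its window (2:154569377-154569676, minus strand) lies inside the annotated gene, whose 5′ end is at 154569892, and the bases before that end were not searched. The window of Cdc6 (11:98907901-98908200, plus strand) and both windows of Mcm7 also lie inside the annotated gene. Cdc6 and Mcm7 count among the members with a word. Members without a window are in neither set, and the difference between the medians was not tested. The windows of 4 members are shown, picked after their values were seen, for their wide range (Orc1), their low p (Rfc3) or several words at a helicase gene (Mcm5 and Mcm6). Each reads 5′ to 3′ on the gene's own strand, with E2F words of either strand in capitals. They lie at chr4:108579204-108579503 (+ strand, Orc1), chr8:75109259-75109558 (+ strand, Mcm5), chr1:128359656-128359955 (- strand, Mcm6) and chr5:151651159-151651458 (- strand, Rfc3).
Orc1: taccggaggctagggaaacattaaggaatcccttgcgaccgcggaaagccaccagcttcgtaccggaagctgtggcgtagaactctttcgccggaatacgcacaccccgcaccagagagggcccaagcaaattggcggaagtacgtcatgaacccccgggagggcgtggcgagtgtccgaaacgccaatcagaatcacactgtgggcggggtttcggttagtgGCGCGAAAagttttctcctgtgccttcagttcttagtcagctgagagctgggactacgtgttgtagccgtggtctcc
Mcm5: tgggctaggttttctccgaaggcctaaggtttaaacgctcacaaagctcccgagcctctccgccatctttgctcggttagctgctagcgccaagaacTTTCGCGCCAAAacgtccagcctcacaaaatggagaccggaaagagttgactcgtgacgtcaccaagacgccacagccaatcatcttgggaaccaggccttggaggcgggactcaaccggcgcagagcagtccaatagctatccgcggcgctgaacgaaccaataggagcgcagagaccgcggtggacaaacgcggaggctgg
Mcm6: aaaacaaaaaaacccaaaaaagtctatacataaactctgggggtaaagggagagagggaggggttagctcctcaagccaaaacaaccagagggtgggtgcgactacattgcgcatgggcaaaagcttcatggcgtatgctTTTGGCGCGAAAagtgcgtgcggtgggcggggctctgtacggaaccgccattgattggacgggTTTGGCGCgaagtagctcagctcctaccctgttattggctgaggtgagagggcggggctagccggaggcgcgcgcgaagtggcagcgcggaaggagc
Rfc3: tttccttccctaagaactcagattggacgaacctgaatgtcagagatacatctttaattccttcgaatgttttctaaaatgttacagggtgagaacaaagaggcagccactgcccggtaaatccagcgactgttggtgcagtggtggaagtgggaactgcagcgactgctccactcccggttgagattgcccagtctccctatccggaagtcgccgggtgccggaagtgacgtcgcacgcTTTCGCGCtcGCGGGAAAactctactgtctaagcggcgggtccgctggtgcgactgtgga
In Orc1 the word starts 27 bases before the start site. Mcm5 has an overlapping pair of words, 153 and 149 bases before it, and Mcm6 such a pair at 110 and 106 bases and a further word at 47 bases. In Rfc3 the words lie 10 bases before the start site and at it. A match of letters is a description and not a bound site.

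The 10 licensing genes had a median log2 fold change of 0.19, with 8 above 0 and 0 called. Orc1, the ATPase subunit of the origin recognition complex, had 1.52 and 1.14 RPKM in MycKO 5 and 6, against 0.0882, 3.24 and 0 RPKM in controls 1, 2 and 3. These values rest on 25 and 46 reads in MycKO and 4, 172 and 0 reads in control; the 0 allows up to 0.0697 RPKM (3 reads), as far as counting error goes. Both MycKO libraries lay between control 2 and the other controls (log2 fold change 0.48, limma adjusted p = 0.86). The fold change was 0.11 to 1.16 with 1 library left out, 1.84 with a pseudocount of 0.1 in place of 1 and 2.78 by limma-voom. Cdc6, which loads the helicase with the origin recognition complex, had 4.02 and 3.30 RPKM in MycKO 5 and 6, against 1.16, 4.48 and 0.967 RPKM in controls 1, 2 and 3. It had the same order of groups, with control 2 highest (0.70, adjusted p = 0.655). Cdt1, its partner in loading, had 13.6 and 18.6 RPKM in MycKO 5 and 6, against 18.8, 21.1 and 14.2 RPKM in controls 1, 2 and 3. There MycKO 5 was the lowest library and not among the high ones (-0.15). Orc6, the smallest subunit of the origin complex, had 20.2 and 13.1 RPKM in MycKO 5 and 6, against 9.08, 15.4 and 13.4 RPKM in controls 1, 2 and 3, with overlap (0.37).

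The 6 subunits of the MCM helicase, the ring that unwinds DNA, were all highest in control 2 among the controls. Mcm2 had 25.3 and 24.1 RPKM in MycKO 5 and 6, against 19.3, 31.5 and 19.7 RPKM in controls 1, 2 and 3. Mcm3 had 28.4 and 21.8 RPKM in MycKO, against 15.4, 29.4 and 19.1 RPKM in control. Both MycKO values lay inside the control range for each gene. Mcm5 had 29.1 and 22.7 RPKM in MycKO, against 19.2, 27.9 and 16.1 RPKM in control, and MycKO 5 was its highest library. Mcm7 had 36.3 and 29.9 RPKM in MycKO, against 27.5, 49.2 and 25.4 RPKM in control. Mcm4 had 39.7 and 34.4 RPKM in MycKO, against 39.0, 53.1 and 36.5 RPKM in control, and MycKO 6 was its lowest library. Mcm6 had 41.3 and 33.7 RPKM in MycKO, against 29.6, 45.4 and 30.3 RPKM in control. The log2 fold changes of the 6 ran from -0.19 for Mcm4 to 0.31 for Mcm5. The highest subunit exceeded the lowest 1.63 and 1.58 times in MycKO 5 and 6, against 2.53, 1.90 and 2.26 times in controls 1, 2 and 3.

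**Figure D4:**
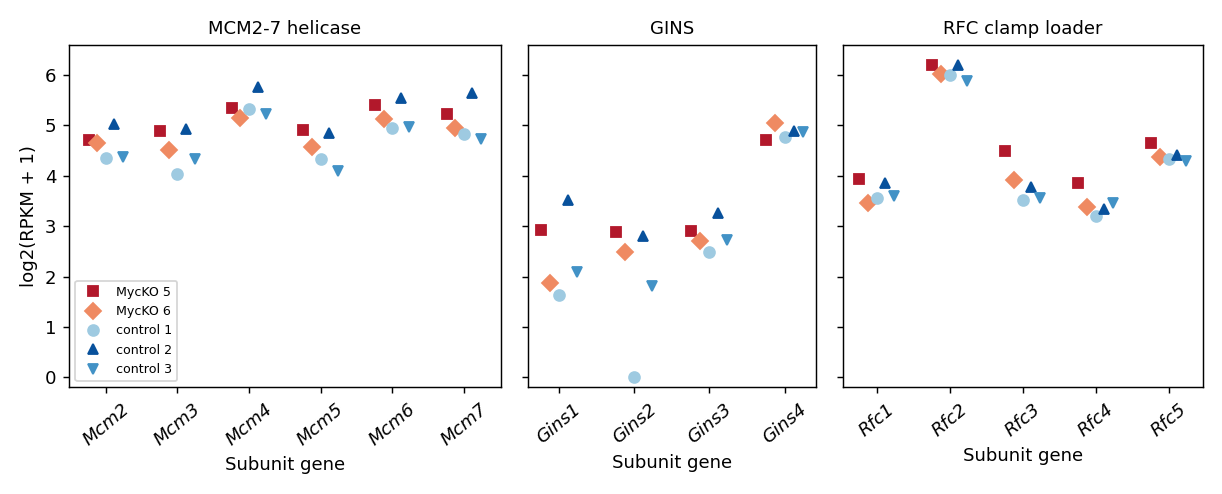
Level (vertical axis, log2(RPKM + 1)) of each subunit gene of the MCM helicase, the GINS complex and the RFC clamp loader; each symbol is 1 library. MCM subunits lie close together, Gins4 lies above the other GINS genes and Rfc2 lies above the other RFC genes in all 5 libraries.

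The 6 genes of helicase activation had a median log2 fold change of 0.19, with 4 above 0 and 0 called. Gins2, a GINS subunit, had 6.36 and 4.62 RPKM in MycKO 5 and 6, against 0, 5.96 and 2.49 RPKM in controls 1, 2 and 3. They rest on 36 and 64 reads in MycKO and 0, 109 and 37 reads in control, and the 0 allows up to 0.192 RPKM (3 reads). The log2 fold change was 1.15 with a 95% interval of -0.57 to 2.87 (limma adjusted p = 0.613). It was 0.38 without control 1, the library at 0 reads, 1.78 without control 2, 2.25 with a pseudocount of 0.1 in place of 1 and 2.57 by limma-voom. Further, 67.3% of its exon bases overlap Gse1 on the opposite strand, so reads of the 2 genes may be mixed. Gins1 had 6.61 and 2.64 RPKM in MycKO, against 2.08, 10.4 and 3.23 RPKM in control. MycKO 5 lay with control 2 above the other libraries, and MycKO 6 lay between controls 1 and 3 (-0.01). Gins3 had 6.46 and 5.50 RPKM in MycKO, against 4.57, 8.54 and 5.57 RPKM in control (-0.02). Gins4 differed from its partners in level and pattern, with 25.3 and 31.9 RPKM in MycKO, against 26.2, 28.7 and 28.3 RPKM in control (0.03). Mcm10, which helps start unwinding, had 2.28 and 1.71 RPKM in MycKO, against 0.472, 2.82 and 0.195 RPKM in control (0.66). Cdc45, part of the active helicase, had 5.74 and 4.82 RPKM in MycKO, against 2.02, 8.86 and 3.05 RPKM in control (0.34). For both, the MycKO libraries lay below control 2 and above the other controls.

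The 6 polymerase and primase genes had a median log2 fold change of 0.09, all 6 above 0 and 0 called. Pola1, the catalytic subunit of DNA polymerase alpha, which starts each new strand, had 9.32 and 5.06 RPKM in MycKO 5 and 6, against 3.12, 10.3 and 2.92 RPKM in controls 1, 2 and 3 (0.48). Pola2, its accessory subunit, had 21.4 and 10.9 RPKM in MycKO, against 8.65, 20.9 and 15.4 RPKM in control (0.11). Prim1, the primase that makes the RNA primer, had 22.6 and 16.7 RPKM in MycKO, against 15.3, 22.0 and 17.8 RPKM in control (0.09). MycKO 5 and control 2 were the 2 highest libraries for all 3 genes. Pole, the leading-strand polymerase, had 4.24 and 2.60 RPKM in MycKO, against 2.46, 5.06 and 2.42 RPKM in control (0.06). Pold1, the catalytic subunit of polymerase delta, had 13.8 and 15.3 RPKM in MycKO, against 15.9, 12.3 and 13.8 RPKM in control (0.06), and control 2 was its lowest library. Pold2, its second subunit, had 21.9 and 17.6 RPKM in MycKO, against 18.5, 19.2 and 17.3 RPKM in control (0.09).

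The 6 clamp and clamp loader genes had a median log2 fold change of 0.18, all 6 above 0 and 0 called. Pcna, the sliding clamp that holds polymerases on DNA (2:132249162-132253314, minus strand, mm10), had 194.5 and 169.4 RPKM in MycKO 5 and 6, against 148.5, 185.8 and 143.6 RPKM in controls 1, 2 and 3. MycKO 5 was highest, and control 2 lay between the MycKO libraries (0.20, 95% interval -0.13 to 0.53, limma adjusted p = 0.67). Rfc3, a clamp loader subunit (5:151642756-151651242, minus strand), had 21.4 and 14.2 RPKM in MycKO, against 10.4, 12.7 and 10.8 RPKM in control. Both MycKO libraries lay above all 3 controls, with a log2 fold change of 0.59 ± 0.22 (SE), a 95% interval of 0.07 to 1.11 and an adjusted p of 0.320. Leaving out 1 library at a time gave 0.31 to 0.87. The other loader genes overlapped between groups. Rfc1, the large subunit, had 14.21 and 10.04 RPKM in MycKO, against 10.71, 13.52 and 11.05 RPKM in control (0.03). Rfc2 had 72.7 and 64.0 RPKM in MycKO, against 63.2, 72.5 and 58.2 RPKM in control (0.08). Rfc4 had 13.6 and 9.43 RPKM in MycKO, against 8.14, 9.06 and 9.95 RPKM in control (0.30). Rfc5 had 24.1 and 19.6 RPKM in MycKO, against 19.2, 20.3 and 18.6 RPKM in control (0.16). MycKO 5 was the highest library for Rfc1, Rfc2, Rfc4 and Rfc5. Rfc2 was the highest and Rfc4 the lowest RFC gene in every library, with a ratio of 5.36 and 6.79 in MycKO 5 and 6, against 7.76, 8.01 and 5.85 in controls 1, 2 and 3.

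Rpa1, the large subunit of the protein that coats single-stranded DNA, was the only member below all controls in both MycKO libraries. It had 52.9 and 59.2 RPKM in MycKO 5 and 6, against 66.0, 73.3 and 60.2 RPKM in controls 1, 2 and 3. The log2 fold change was -0.24, with a 95% interval of -0.54 to 0.06 (limma adjusted p = 0.522). Its partner Rpa2 had 36.2 and 31.8 RPKM in MycKO, against 30.6, 46.1 and 31.7 RPKM in control (-0.06). Fen1, the nuclease that trims Okazaki fragments, had 24.7 and 18.2 RPKM in MycKO, against 14.7, 32.2 and 14.8 RPKM in control (0.14); 78.8% of its exon bases overlap Gm10143 on the opposite strand. Lig1, the ligase that seals them, had 14.3 and 11.5 RPKM in MycKO, against 10.2, 26.5 and 7.12 RPKM in control (0.03). For both, control 2 was highest and the MycKO libraries lay above the other controls.

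Of the 4 genes that control entry into S phase, 0 were called. Their log2 fold changes were 1.59 for E2f1, 0.30 for E2f2, 0.99 for Ccne1 and 0.85 for Ccne2. E2f1, a transcription factor that switches on many replication genes (2:154559407-154569892, minus strand), had 5.91 and 3.41 RPKM in MycKO 5 and 6, against 0.0643, 1.32 and 1.51 RPKM in controls 1, 2 and 3. These values rest on 100 and 141 reads in MycKO and 3, 72 and 67 reads in control. Both MycKO libraries lay above all 3 controls, and control 2 was not the highest control. The groups differed by 1.59 ± 0.48 on the log2 scale (SE), with 95% limits of 0.47 and 2.70, an unadjusted p of 0.0115 and a limma adjusted p of 0.199. The authors' deposited table gave a log2 ratio of 2.21 with an adjusted p of 0.319. Over the alternatives the adjusted p ran from 0.145 to 0.768, and leaving out 1 library at a time gave fold changes of 1.19 to 1.91. A pseudocount of 0.1 gave 2.67, and limma-voom 2.84.

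E2f2, a related activator, did not share that pattern, with 9.60 and 6.19 RPKM in MycKO 5 and 6, against 2.44, 17.7 and 4.55 RPKM in controls 1, 2 and 3 (0.30). Ccne1 encodes cyclin E1, which activates CDK2 at the start of S phase. It had 14.8 and 8.39 RPKM in MycKO, against 3.36, 10.3 and 3.72 RPKM in control (0.99, 95% interval -0.08 to 2.05, limma adjusted p = 0.419). Control 2 lay between its MycKO libraries, and the log2 fold change was 0.61 without MycKO 5 (adjusted p = 0.886) and 1.42 without control 2 (adjusted p = 0.0907), the lowest and highest values with 1 library left out. Ccne2, which encodes cyclin E2, had 2.212 and 1.198 RPKM in MycKO, against 0.561, 0.685 and 0.211 RPKM in control (0.85, adjusted p = 0.426). As it passed the filter through the MycKO libraries alone, its direction is no evidence. Uhrf1, which helps copy DNA methylation onto the new strand, had 13.2 and 6.64 RPKM in MycKO, against 3.15, 11.5 and 3.28 RPKM in control (0.78, adjusted p = 0.64). Its log2 fold change was 0.33 without MycKO 5 (adjusted p = 0.941) and 1.30 without control 2 (adjusted p = 0.151), the lowest and highest values with 1 library left out.

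**Figure D5:**
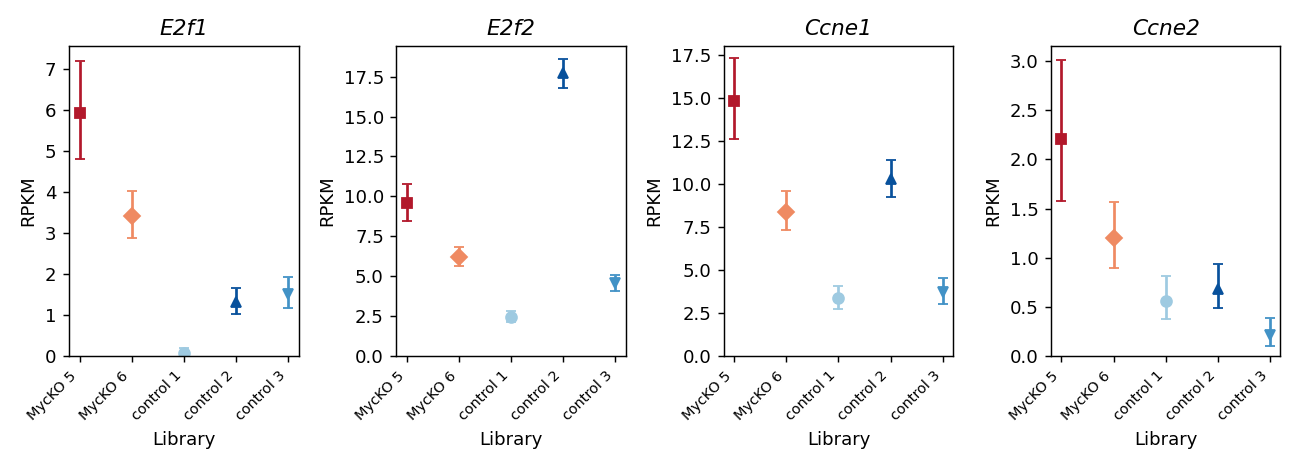
Level (vertical axes, RPKM, a separate scale per panel) of E2f1, E2f2, Ccne1 and Ccne2 in each library, with exact Poisson 95% intervals that cover counting error only. E2f1 and Ccne2 are above all controls in both MycKO libraries, whereas control 2 is the highest library for E2f2 and lies between the MycKO libraries for Ccne1.

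Other genes of DNA replication were described from lists of 71 genes, of which 70 were tested. Of these 0 passed limma or limma-voom, against 1.34% of all genes called by limma. At an unadjusted p under 0.05 there were 5, against 13.2% of all genes, and 46 lay above 0 and 24 below, against 57.1% of all genes above 0. The median was 0.19, beside 0.05 over all genes. Of 14 other origin and helicase genes tested, 4 lay above 0 and 10 below (median -0.04). Orc5, another origin recognition subunit, had 18.6 and 20.9 RPKM in MycKO 5 and 6, against 31.8, 25.1 and 28.7 RPKM in controls 1, 2 and 3, without overlap (-0.51, limma adjusted p = 0.219). Mcmbp, which binds MCM proteins, was at -0.24 and Recql4, a helicase needed for initiation, at 0.52. Of 22 other fork genes, 17 lay above 0 (median 0.30), with Prim2, the second primase subunit, at 0.47 (adjusted p = 0.379), Tipin, a fork protection factor, at 0.41 and Atad5, which unloads PCNA, at 0.61. Of 9 chromatin assembly genes, 6 lay above 0 (median 0.15), with the histone chaperones Asf1a at 0.73 (adjusted p = 0.271), Chaf1b at 0.61 and Nasp at 0.15. Of 16 other S phase control genes, 11 lay above 0 (median 0.29), with the repressor E2f6 at 0.77 (adjusted p = 0.209), the CDK inhibitor Cdkn1a at 1.21 (adjusted p = 0.284) and the phosphatase Cdc25a at 0.56.

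The 9 genes that supply deoxynucleotides had the highest median of these lists, 0.59, with 8 above 0, against 57.1% of all genes. Limma called 0, against 1.34% of all genes, and limma-voom 0, against 2.07%. An unadjusted limma p under 0.05 was reached by 0, against 13.2%. Tk1, thymidine kinase, had 25.4 and 16.9 RPKM in MycKO 5 and 6, against 5.14, 20.7 and 2.30 RPKM in controls 1, 2 and 3 (1.52, limma adjusted p = 0.416). Dut, which clears dUTP, was at 0.82 and Rrm1, the large subunit of ribonucleotide reductase, at 0.59. Control 2 was the highest control for 9 of the 9. Without control 2, Tk1 passed limma at 2.27 (adjusted p = 0.0341), against 1.97% of all genes. So did Rrm2, the small reductase subunit, at 2.19 (adjusted p = 0.017). Leaving out the highest control raises a difference by construction, so these calls are no evidence of one. Rrm2 had 36.1 and 21.7 RPKM in MycKO, against 5.24, 41.7 and 5.49 RPKM in control. Of the 24 mitosis genes 0 were called by limma, against 1.34% of all genes, and 0 by limma-voom, against 2.07%. None had an unadjusted limma p under 0.05, against 13.2% of all genes. Above 0 lay 23, against 57.1% of all genes, with a median of 0.46, beside 0.05 over all genes. Birc5, a chromosomal passenger protein, was at 1.504, Anln, a cytokinesis scaffold, at 0.87 and Aurka, a spindle kinase, at 0.82. Without control 2 the mitosis median was 1.07, a rise by construction, since control 2 was the highest control for 24 of 24. In that fit 1 gene passed limma, Birc5 at 2.34 (adjusted p = 0.0339), against 1.97% of all genes. Birc5 had 0.197 and 0.587 RPKM in controls 1 and 3. It thus passed the filter of that fit through the MycKO libraries alone, and its direction there is no evidence.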

How the data were processed

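RNA of 5 libraries of sorted NK cells was sequenced as single reads from dUTP stranded libraries, per the labels' protocols. TopHat, edgeR and the build mm10 are named without role or version in the submitters' processing notes. No source used here names the annotation, the counting tool or whether strand was used. Exons of 12 members overlap genes on the opposite strand, and reads of such pairs may not be separated. The deposited table gives RPKM per library, recognised from the values since the header has only sample names. Per the file headers it also gives the authors' mean normalized signal per group, the authors' fold ratio and its log2, and the authors' p-values; their test is not named. The lowest mean was 2.1, so the faintest genes are not in the table.

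Values were tested as log2(RPKM + 1) with limma 3.58.1 in R 4.3.3 (two-sided, with a trended variance and 4.41 prior beside 3 residual degrees of freedom), on genes reaching 1 RPKM in 2 or more libraries, with Benjamini-Hochberg adjustment over all 11190 genes and a threshold of 0.05. Reads behind the RPKM were worked out from the deposited group means, and 100% of values came out whole within 0.001 read. They gave depth, shares of reads and a limma-voom fit. The lowest chi-square per degree of freedom between any 2 libraries was 17.5, so none was a repeat of another. The script was tested on simulated data. The members and all gene lists were chosen with earlier results of these data known. Named are all 37 members, the 3 genes with the smallest p and any that passed of each other replication list and the 3 with the smallest p of the mitosis list; Rrm2 was named after its values were seen. A marker gene that the naming rule covers is not reported here. Gene coordinates are from GENCODE vM21. Alternatives were other scalings, pseudocount and filters, each library left out, limma-voom, the authors' test and a threshold of 0.01.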

Additional observations from a re-analysis of the deposited data

How the results depend on the processing

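The count of members called at 0.05 was 0 under every alternative run, including each library left out, against 0.316% to 3.4% of all genes tested. Over all genes 150 passed, against 80 with a pseudocount of 0.1, 232 by limma-voom, 442 in the authors' deposited table, 24 at a threshold of 0.01, and 34 to 217 with 1 library left out. Other replication genes called numbered 0 to 2 and mitosis genes 0 to 1 with 1 library left out. Leaving an arm with 1 MycKO library assumes that it varies like the others. No paired analysis was possible because the groups share no replicate numbers.

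Signs turned for members whose log2 fold change with all libraries lay between -0.15 and 0.34, and the cause was not tested. With median-of-ratios scaling the log2 fold change was -0.0295 for Mcm7, -0.0117 for Gins4, -0.0153 for Rfc1 and -0.0177 for Lig1. With upper-quartile scaling it was -0.0276 for Mcm7, -0.0097 for Gins4, -0.0135 for Rfc1 and -0.0158 for Lig1. With a pseudocount of 0.1 it was 0.0149 for Gins1. By limma-voom it was -0.0589 for Mcm7, -0.1054 for Pola2, -0.0151 for Prim1, -0.1146 for Pole, -0.0713 for Rfc1 and -0.0835 for Lig1. In the authors' deposited table it was -0.1016 for Mcm7, -0.0109 for Gins4, -0.0051 for Pold1, -0.0210 for Pole, -0.0223 for Rfc1, -0.0021 for Fen1, -0.2392 for Lig1 and -0.1187 for E2f2. With 1 library left out, ranges that crossed 0 were -0.0134 to 0.84 for Cdc45, -0.37 to 0.0611 for Cdt1, -0.22 to 1.00 for E2f2, -0.0735 to 0.50 for Fen1, -0.54 to 0.54 for Gins1, -0.19 to 0.20 for Gins3, -0.13 to 0.20 for Gins4, -0.34 to 0.54 for Lig1, -0.0144 to 0.33 for Mcm2, -0.0287 to 0.31 for Mcm6, -0.16 to 0.31 for Mcm7, -0.35 to 0.57 for Pola2, -0.0274 to 0.14 for Pold1, -0.0552 to 0.24 for Pold2, -0.21 to 0.34 for Pole, -0.12 to 0.30 for Prim1, -0.20 to 0.26 for Rfc1, -0.0076 to 0.17 for Rfc2 and -0.17 to 0.12 for Rpa2. Other wide ranges were 0.43 to 1.17 for Cdc6, 0.33 to 1.17 for Mcm10, 0.0949 to 0.98 for Pola1, 0.0776 to 0.66 for Orc6 and 0.0666 to 0.51 for Mcm3. Orc1 and Ccne2 were not tested with the CPM filter, nor Ccne2 without either MycKO library. Depth limits Orc1, Gins2 and E2f1, which have 4 reads or fewer in a control.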
